A study of Mus musculus with 9 samples.

Results

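The comparison described here sets ovaries labelled as granulosa cell tumour against wild-type ovaries, 3 RNA-seq libraries of each, which are 6 of the 9 libraries of the series. Wild-type ovaries carried the genotype FOXL2 WT/WT, and the tumour ovaries carried 1 mutant copy (FOXL2 WT/C134W), the C134W substitution that defines adult-type granulosa cell tumours in women. The other 3 libraries, FOXL2 WT/C134W ovaries labelled as hyperplasia, entered the fit for its estimate of spread and are quoted for orientation. Strain, age and the origin of the mice were not given in the sources used here, nor was it said that the samples came from separate animals, so each p-value reflects spread among samples, which may be technical. Tumour library 3 and hyperplasia library 3 share the stem of their sample titles, and what the stem stands for was not given. All 55536 genes of the deposited tables were considered and 16213 had enough counts to be tested. The account leaves aside oocyte, adipocyte and luteal genes and asks which other functions and cell types differed.

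Granulosa cells are the somatic cells that enclose the oocyte, convert androgen to oestrogen and signal to the oocyte through gap junctions. Foxl2 is a forkhead transcription factor that keeps them in the ovarian state. A granulosa cell tumour is a growth of these cells. An ovary also holds stroma, vessels and leukocytes. Bulk RNA of a whole ovary therefore mixes several cell types, and fewer cells of a type cannot be told apart from less RNA per cell.

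Levels are in CPM, counts scaled to library size with trimmed-mean factors. Totals ran from 11661820 to 20890487 counts per library. A gene is called where the quasi-likelihood test of edgeR gave a Benjamini-Hochberg adjusted p under 0.05, and a log2 fold change is tumour minus wild type. The library that differed most from its group was library 1 among wild type and library 2 among tumours. Their log2 expression correlated with the other libraries of their group at 0.894 to 0.920 across genes, against 0.973 for the other wild-type pair and 0.971 for the other tumour pair. In both libraries expression relative to the 6-library mean fell with gene length (Spearman rho across genes −0.549 in wild-type library 1 and −0.239 in tumour library 2), while the other 4 had positive values from 0.156 to 0.396. Foxl2 itself stood at 203, 146 and 178 CPM in wild-type libraries 1, 2 and 3 and at 268, 227 and 388 CPM in the tumours. The groups did not overlap, but Foxl2 was not called (log2 fold change 0.74, adjusted p = 0.298, edgeR quasi-likelihood test, Benjamini-Hochberg).

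The label was checked against granulosa markers, and 20 of 20 listed markers were measured. Inha, the alpha subunit of inhibin, stood at 2402, 2820 and 3021 CPM in the tumours and at 2214, 757 and 1414 CPM in wild type. Tumour library 2 held Foxl2, Inha and Amhr2, the receptor of anti-Müllerian hormone (225 CPM). Yet its Fshr, the receptor of follicle-stimulating hormone, had 0 counts (which allows up to 0.233 CPM before trimmed-mean scaling, counting error only). Fshr stood at 81.8 and 80.7 CPM in tumour libraries 1 and 3. Amh, anti-Müllerian hormone, a product of granulosa cells of growing follicles, went the other way, from 222, 221 and 211 CPM in wild type to 7.81, 0.0975 and 39.4 CPM in the tumours and 12.4, 6.59 and 16.3 CPM in hyperplasia. The groups did not overlap, but Amh was not called (−3.79, SE 1.17, adjusted p = 0.121, edgeR quasi-likelihood test, Benjamini-Hochberg). Tumour library 2 also had only 2.54 CPM of Wt1, a transcription factor of granulosa and surface epithelial cells, against 422 and 205 CPM. The list had a median log2 fold change of 0.38 beside 0.01 over all genes tested, with 14 of 20 members above 0 and no member called in either direction. Its score, the mean of log2(CPM + 0.5) over members centred on the 6 libraries, did not separate the groups. It was 0.27, −0.45 and 0.45 in wild type and −0.21, −0.65 and 0.59 in the tumours.

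Of the 16213 genes, 259 were called (1.6%), 57 higher in tumours (0.352%) and 202 lower (1.25%). The lowered genes included 19 on the oocyte list, 2 on the adipocyte list and 4 on the luteal list, and 37 others had 3 or fewer counts over the 3 tumours. The account turns on the 140 that remained and the 57 raised, and names genes of few tumour counts where a list holds them. The calls depended on single libraries: 14 of the 259 were still called without wild-type library 1, 18 without library 2 and 0 without library 3, and 2, 39 and 0 without tumour libraries 1, 2 and 3. No gene was called in all 6 of these fits, although all 259 kept their direction in each. A fit with a term for the shared title stem called 0 genes and held 2610 at an unadjusted p under 0.05 (edgeR quasi-likelihood test). Over all genes, 3262 had an unadjusted p under 0.05 (20.1%), 1364 higher (8.41%) and 1898 lower (11.7%). At that level the fits without wild-type library 3 and without tumour library 3 still held 2841 and 3146 genes. Without any test, the 3 tumours lay wholly above the 3 wild-type ovaries for 10.6% of the genes and wholly below for 13.4%.

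Among the named raised genes, Thbs1, Lamc3 and Col11a1 encode matrix proteins and Gpc4 a cell surface proteoglycan. Thbs1 (ENSMUSG00000040152, GRCm38 chromosome 2, 118111876 to 118127133, plus strand) encodes thrombospondin 1, a matrix glycoprotein that inhibits angiogenesis and activates latent TGF-beta. It stood at 331, 492 and 598 CPM in wild type and at 2894, 5362 and 2966 CPM in the tumours, the highest tumour CPM of any raised gene, a value not corrected for length. Every tumour was above every wild-type ovary, and the hyperplasia libraries lay between at 1059, 955 and 1526 CPM (log2 fold change 2.98, SE 0.40, adjusted p = 0.0287, edgeR quasi-likelihood test, Benjamini-Hochberg). Lamc3, the gamma 3 chain of laminin, rose from 23.5, 25.1 and 39.7 CPM to 317, 223 and 187 CPM (3.04, SE 0.49). It was the 1 called member of the basement membrane list, which had 20 of 27 members above 0 and a median of 0.39, but 0.13 without wild-type library 1. Col11a1, a chain of fibrillar collagen XI, rose from 34.7, 72.6 and 85.2 CPM to 228, 402 and 205 CPM (2.12, SE 0.38). Gpc4, a cell surface heparan sulphate proteoglycan, had tumour values close to each other at 368, 318 and 337 CPM, above 113, 134 and 142 CPM in wild type (1.39, SE 0.26). The adjusted p of Lamc3, Col11a1 and Gpc4 lay between 0.0356 and 0.0443 (edgeR quasi-likelihood test, Benjamini-Hochberg).

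The secreted factors Metrnl, Nell1, Ccdc3 and Angptl2 also rose. Metrnl, meteorin-like, a factor released by muscle and fat that acts on immune cells, stood at 45.8, 33.9 and 35.0 CPM in wild type and at 410, 625 and 186 CPM in the tumours (3.41, SE 0.55). Hyperplasia libraries 1 and 2, at 41.4 and 33.0 CPM, lay near the wild-type level and library 3 at 100.3 CPM. Nell1, a secreted growth regulator known from bone formation, rose from 3.03, 3.0 and 4.71 CPM to 205, 42.1 and 247 CPM (5.52, SE 1.09). Tumour library 2 was the lowest of the 3 for Nell1 and the highest for Metrnl, so the tumours differed among themselves by several-fold in both genes. Ccdc3, a secreted coiled-coil protein, rose from 46.8, 37.3 and 83.2 CPM to 292, 619 and 274 CPM (2.82, SE 0.48), and its hyperplasia values of 309, 128 and 228 CPM were all above wild type. Angptl2, an angiopoietin-like secreted glycoprotein, rose by a log2 fold change of 1.66 (SE 0.33) to 110, 214 and 116 CPM. Their adjusted p lay between 0.0356 and 0.0471 (edgeR quasi-likelihood test, Benjamini-Hochberg).

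**Figure D1:**
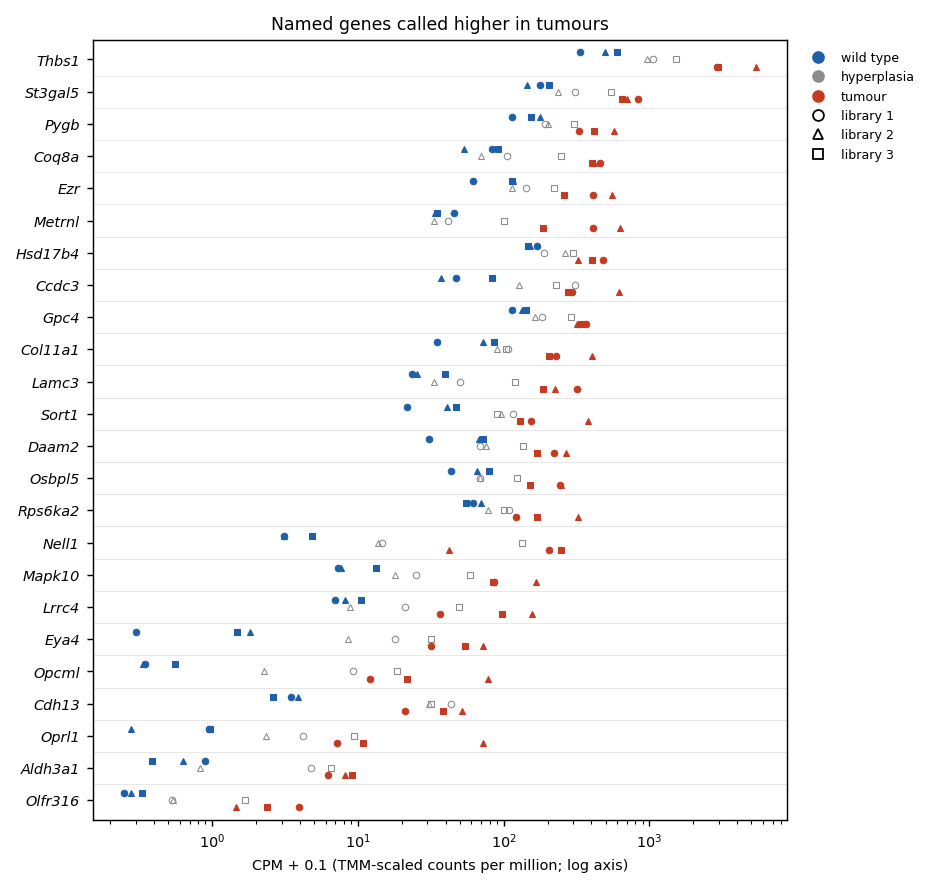
Levels of the 24 raised genes named by level or by fold, 1 row a gene, as CPM + 0.1 on a log axis, with a point for each of 3 wild-type (blue), 3 hyperplasia (grey) and 3 tumour (red) libraries and a shape for the library number. In every row all red points lie to the right of all blue points, which the rule for naming genes required. Thbs1 lies farthest right at 2894 to 5362 CPM in the tumours, and most grey points lie between the red and the blue.

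Among the named raised genes, Opcml, Cdh13, Lrrc4 and Adgrv1 encode cell adhesion molecules or adhesion receptors. Opcml, a lipid-anchored immunoglobulin-family adhesion molecule (chromosome 9, 27790775 to 28925410, plus strand), stood at 0.249, 0.236 and 0.460 CPM in wild type and at 12, 78.1 and 21.8 CPM in the tumours. The log2 fold change was 6.86 (SE 1.07), and 5.72 without tumour library 2, the highest of the 3. Cdh13, an anchored cadherin without a cytoplasmic tail, rose from 3.38, 3.77 and 2.53 CPM to 21.1, 51.6 and 38.2 CPM (3.51, SE 0.37, adjusted p = 0.0185, edgeR quasi-likelihood test, Benjamini-Hochberg). It was called in 11 of the 15 alternative analyses, the most of any raised gene. Cdh13 was already at 43.7, 30.6 and 31.6 CPM in hyperplasia, clear of wild type in all 3 libraries. Lrrc4, a leucine-rich repeat protein of the synapse, rose from 6.81, 8.01 and 10.5 CPM to 36.7, 157 and 97.9 CPM (3.53, SE 0.70). Adgrv1, a very large adhesion receptor needed for hearing, rose from 14.9, 21.7 and 26.6 CPM to 102, 147 and 116 CPM (2.53, SE 0.36).

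These genes did not carry their families with them. The synaptic and neural adhesion list had 38 measured members, of which 19 were above 0 and 19 below, with a median of −0.05. Opcml and Lrrc4 rose, while Nrcam, another neural adhesion molecule, fell from 179, 42.5 and 29.3 CPM to 1.72, 0.878 and 3.44 CPM (−5.36, −4.14 without wild-type library 1). Of 13 measured cadherins outside the clustered genes, Cdh13 was the 1 called, 8 were above 0 and 5 below. Protocadherins had a median of −0.01 over 57 members with none called. Genes of synaptic vesicles and postsynaptic scaffolds had a median of −0.15 over 33 members, and Syt1, a calcium sensor of vesicle release, fell from 6.61, 8.77 and 5.86 CPM to 0.728, 1.07 and 1.26 CPM. The adjusted p of the 5 called genes other than Cdh13 lay between 0.0300 and 0.0471 (edgeR quasi-likelihood test, Benjamini-Hochberg).

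The named raised genes also included regulators of transcription and signalling. Eya4, a coactivator and phosphatase that works with homeodomain factors in organ development (chromosome 10, 23102963 to 23350786, minus strand), stood at 0.199, 1.71 and 1.38 CPM in wild type and at 31.4, 72.3 and 53.9 CPM in the tumours (5.59, SE 0.79). Hyperplasia libraries had 18, 8.48 and 31.5 CPM, each above every wild-type ovary. Mapk10, the JNK kinase of neurons, rose from 7.16, 7.54 and 13.3 CPM to 85.5, 165 and 84.3 CPM (3.58, SE 0.53). It was the 1 called gene of 22 in the JNK and p38 cascade, whose median was 0.20. Oprl1, the nociceptin receptor, was at 0.845, 0.177 and 0.862 CPM in wild type and at 7.08, 72.0 and 10.8 CPM in the tumours. Its log2 fold change of 5.55 (SE 1.11) was 3.81 without tumour library 2. Daam2, a formin of Wnt signalling (1.94, SE 0.40), and Rps6ka2, a ribosomal S6 kinase downstream of ERK (1.72, SE 0.35), rose to 168 to 266 and 121 to 321 CPM. Zfp41, a zinc finger protein, rose from 33.4, 49.7 and 52.9 CPM to 130, 322 and 143 CPM (2.13, SE 0.42). Adjusted p-values for these genes lay between 0.0300 and 0.0496 (edgeR quasi-likelihood test, Benjamini-Hochberg).

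Foxl2 is a forkhead factor, so the promoters of called genes were searched for the forkhead core GTNAACA on both strands, in the 250 bases before and 50 after each start listed by RefSeq (GRCm38.p6). Of 52 raised protein-coding genes 38 had a listed promoter, and 1 of them held the motif (2.63%). It was found in 17 of 141 lowered genes (12.1%) and in 1019 of 11706 genes over all those tested (8.70%). The palindrome GTCTAGAC, a SMAD binding motif, was in none of the raised or lowered genes and in 0.308% of all. The 1 raised gene with the forkhead core was Coq8a, whose window holds 2 overlapping matches, 1 on each strand. It is shown with the matched letters in capitals, next to the promoters of Opcml and Eya4, the 2 protein-coding genes with the largest fold, which hold no match. Positions are on GRCm38.p6, chr1:180193436-180193735 on the minus strand for Coq8a, chr9:27791049-27791348 on the plus strand for Opcml and chr10:23349894-23350193 on the minus strand for Eya4.
Coq8a: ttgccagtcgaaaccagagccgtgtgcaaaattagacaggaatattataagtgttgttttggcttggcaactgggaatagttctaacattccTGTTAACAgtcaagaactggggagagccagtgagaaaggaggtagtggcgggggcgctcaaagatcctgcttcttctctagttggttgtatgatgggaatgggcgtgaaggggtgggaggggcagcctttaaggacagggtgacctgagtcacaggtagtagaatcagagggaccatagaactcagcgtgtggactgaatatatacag
Opcml: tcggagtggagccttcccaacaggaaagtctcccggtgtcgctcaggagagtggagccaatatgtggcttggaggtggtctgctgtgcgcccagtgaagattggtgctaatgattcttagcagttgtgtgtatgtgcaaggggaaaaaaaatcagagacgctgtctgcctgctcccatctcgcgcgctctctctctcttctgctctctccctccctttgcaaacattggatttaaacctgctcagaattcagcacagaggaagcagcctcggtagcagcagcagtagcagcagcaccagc
Eya4: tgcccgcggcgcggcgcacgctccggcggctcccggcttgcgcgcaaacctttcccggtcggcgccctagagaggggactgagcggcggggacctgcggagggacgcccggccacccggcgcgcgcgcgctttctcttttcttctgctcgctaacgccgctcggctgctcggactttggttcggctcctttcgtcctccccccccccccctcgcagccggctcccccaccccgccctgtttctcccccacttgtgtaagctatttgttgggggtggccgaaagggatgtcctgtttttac
A match is a run of letters in these windows and not a binding site.

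Other named raised genes encode metabolic enzymes and a lipid transfer protein. St3gal5, the sialyltransferase that makes the ganglioside GM3, rose from 178, 145 and 205 CPM to 838, 704 and 649 CPM (2.05, SE 0.34), with little spread in either group. Coq8a, an atypical kinase needed for coenzyme Q synthesis, rose from 83.2, 53.6 and 91.2 CPM to 457, 419 and 405 CPM (2.49, SE 0.45). Pygb, a glycogen phosphorylase, rose from 114, 179 and 154 CPM to 327, 571 and 417 CPM (1.56, SE 0.30). Hsd17b4, an enzyme of peroxisomal fatty acid oxidation that also oxidises oestradiol, rose from 169, 152 and 148 CPM to 480, 323 and 400 CPM (1.36, SE 0.25). Aldh3a1, an aldehyde dehydrogenase known from the cornea, rose from 0.796, 0.530 and 0.287 CPM to 6.16, 8.09 and 8.99 CPM (3.82, SE 0.77). It was the 1 called gene of 18 aldehyde dehydrogenases, of which 9 were above 0 and 9 below. Osbpl5, an oxysterol-binding protein that moves lipids between membranes, rose to 243, 246 and 151 CPM from 43.6, 65.3 and 79.2 CPM (1.77, SE 0.34). Their adjusted p lay between 0.0363 and 0.0473 (edgeR quasi-likelihood test, Benjamini-Hochberg).

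Ezr, Sort1 and channel and receptor genes were also among the named raised genes. Ezr, which links the plasma membrane to actin, rose from 61.9, 115 and 113 CPM to 412, 555 and 259 CPM (2.08, SE 0.39). Sort1, sortilin, a sorting receptor of the Golgi and endosomes, rose from 21.5, 41.0 and 47.0 CPM to 153, 378 and 129 CPM (2.59, SE 0.46, and 1.95 without tumour library 2). Among 59 measured potassium channel genes Kcnk5, a channel sensitive to pH, and Kcnq5, a voltage-gated channel of the M current, rose. Kcnk5 went from 11.2, 15.6 and 16.3 CPM to 64.9, 91.0 and 49.9 CPM, and Kcnq5 from 4.77, 5.36 and 11.6 CPM to 79.4, 42.3 and 33.4 CPM. The family as a whole had 30 members above 0 and 29 below. The olfactory receptor gene Olfr316 rose from 0.149, 0.177 and 0.230 CPM to 3.84, 1.37 and 2.27 CPM, and reads shared with its many relatives make that value uncertain. For these genes the adjusted p lay between 0.0356 and 0.0464 (edgeR quasi-likelihood test, Benjamini-Hochberg).

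The raised genes did not climb evenly over the 3 tumours. Tumour library 2 was the highest of the 3 for 38 of the 57 raised genes and the lowest for 11, tumour library 1 was highest for 12 and tumour library 3 for 7. The mean of the hyperplasia libraries lay between wild type and tumour for 56 of the 57, and beyond the tumour mean for 1. All 3 hyperplasia libraries lay above the whole wild-type range for 35 of them. Hyperplasia library 3, which shares a title stem with tumour library 3, was the highest of its group for 46 of the 57. The shares over all genes were not counted. No test of these positions was made, since the hyperplasia libraries are read against the same 2 groups. The genes were called for being apart in those groups, so values between them were likely in advance.

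Of the named lowered genes, Idh1, Mgarp, Slc25a30, Dnajc15 and Hao2 encode proteins of mitochondria, peroxisomes or the cytosol. Idh1, the cytosolic and peroxisomal isocitrate dehydrogenase that supplies NADPH, stood at 2236, 924 and 1013 CPM in wild type and at 229, 190 and 278 CPM in the tumours. Every tumour was far below every wild-type ovary (−2.58, SE 0.41). Mgarp, a mitochondrial protein of steroid-making tissues, fell from 773, 853 and 532 CPM to 85.7, 83.8 and 90.5 CPM (−3.05, SE 0.43), with tumours almost equal. Slc25a30, a mitochondrial carrier (−1.90, SE 0.37), and Dnajc15, a co-chaperone of mitochondrial protein import (−2.17, SE 0.35), fell to 42.2 to 70.5 and 41.0 to 46.3 CPM. Hao2, a peroxisomal hydroxyacid oxidase, fell from 191, 238 and 125 CPM to 54.2, 25.7 and 51.7 CPM (−2.07, SE 0.37). In this group the adjusted p lay between 0.0300 and 0.0464 (edgeR quasi-likelihood test, Benjamini-Hochberg). Luteal genes moved in the same direction. The luteal list score, the mean of log2(CPM + 0.5) over members centred on the 6 libraries, was 2.56, 0.35 and 1.76 in wild type and −1.58, −1.72 and −1.36 in the tumours. Its part in the fall of these genes was not tested.

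Cholesterol synthesis and uptake had the lowest median of the function lists. Of 27 members, 24 were below 0 and 17 did not overlap between the groups in that direction, beside 13.4% of all genes. The median log2 fold change was −1.52, and −0.95 without wild-type library 1, whose list score of 1.65 lay far above −0.02 and 0.32 in the other wild-type ovaries. The tumours scored −0.73, −0.49 and −0.73. No member was called. Fdps, which makes farnesyl diphosphate, stood at 817, 113 and 196 CPM in wild type and at 28.3, 60.2 and 26.1 CPM in the tumours (−3.30, adjusted p = 0.0614, edgeR quasi-likelihood test, Benjamini-Hochberg).

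The named lowered genes also included kinases, a channel subunit and nuclear regulators. Sgk1, a kinase induced by glucocorticoids and gonadotrophins, fell from 646, 186 and 258 CPM to 20.2, 30.4 and 35.8 CPM (−3.66, SE 0.55, and −2.95 without wild-type library 1). Its relative Sgk3 fell too (−1.21, SE 0.23). Pik3c2g, a class II PI3-kinase, fell from 227, 111 and 60.7 CPM to 0.596, 0 and 1.26 CPM, 24 counts in all (−7.69, SE 1.22, −7.06 without wild-type library 1 and −8.59 without tumour library 3). Id2, an inhibitor of basic helix-loop-helix factors, fell from 195, 138 and 65.1 CPM to 21.3, 20.4 and 39.6 CPM (−2.29, SE 0.42). Kcnab3, a potassium channel subunit, fell by 3.86 on the log2 scale and by 2.74 without wild-type library 1, which held 230 CPM against 43.4 and 58.0 CPM in the other wild-type ovaries. Smarca1, a chromatin remodeller (−1.84), and Rims4, of the synaptic active zone (−1.33), fell to 55.8 to 98.9 and 41.5 to 48.4 CPM. The adjusted p-values of these genes lay between 0.0335 and 0.0471 (edgeR quasi-likelihood test, Benjamini-Hochberg).

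**Figure D2:**
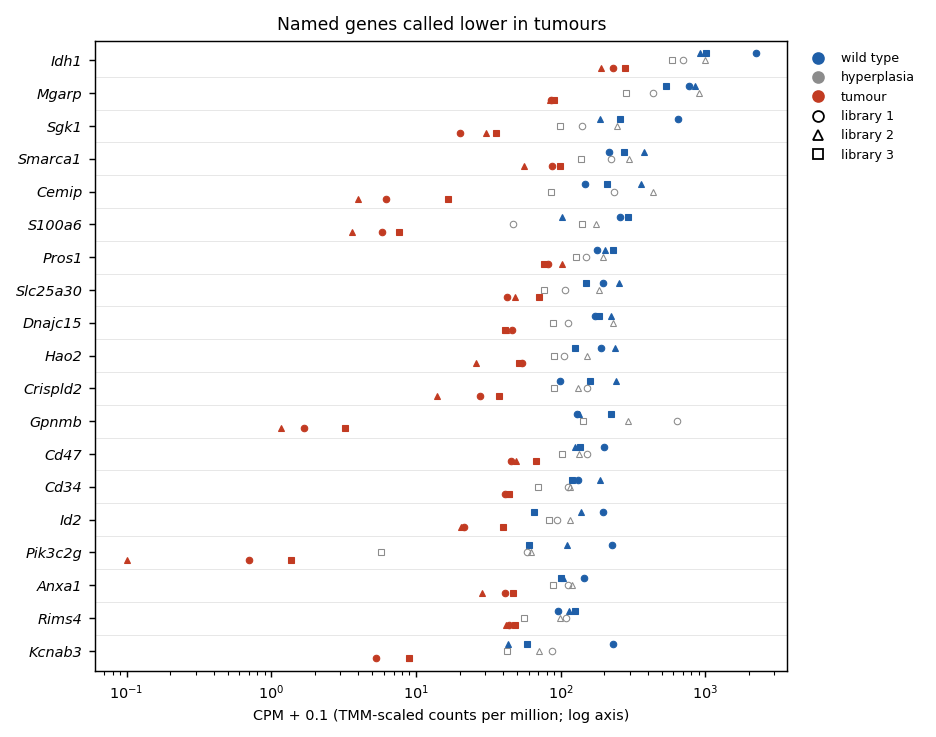
Levels of 19 of the lowered genes named by wild-type level, with oocyte, adipocyte and luteal list genes left out, as CPM + 0.1 on a log axis, with 1 point a library and the colours and shapes of the plot of raised genes. All red points lie to the left of all blue points in every row, which the rule for naming genes required. The grey points of Gpnmb lie at 143 to 639 CPM.

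Some matrix and secreted protein genes fell. Cemip, which cuts hyaluronan, fell from 148, 359 and 209 CPM to 6.09, 3.90 and 16.6 CPM (−4.75, SE 0.77, and −5.57 without tumour library 3). Crispld2, a secreted protein that binds endotoxin, fell from 98.2, 240 and 159 CPM to 27.7, 13.8 and 37.5 CPM (−2.65, SE 0.45). Pros1, the anticoagulant protein S, fell from 179, 201 and 231 CPM to 81.7, 101 and 76.8 CPM (−1.23, SE 0.23). Collagens split: Col11a1 rose, and Col6a5 fell from 21, 32.7 and 136 CPM to 2.25, 1.37 and 2.69 CPM (−4.90, and −3.67 without wild-type library 3), with 20 of 40 measured collagens above 0 and 20 below. Adamts5, an aggrecan-cutting protease, fell from 40.4, 19.7 and 65.2 CPM to 1.66, 5.07 and 1.43 CPM (−3.95, and −4.75 without tumour library 2). Together with Mmp12 it was called among 53 ADAM, ADAMTS and matrix metalloprotease genes with a median of −0.26. The adjusted p of Cemip, Crispld2, Pros1, Col6a5 and Adamts5 lay between 0.0356 and 0.0449 (edgeR quasi-likelihood test, Benjamini-Hochberg).

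Genes of small calcium-binding and cell surface proteins were also among those that fell. S100a6 stood at 256, 102 and 290 CPM in wild type and at 5.76, 3.51 and 7.48 CPM in the tumours (−5.27, SE 0.64, adjusted p = 0.0258, edgeR quasi-likelihood test, Benjamini-Hochberg). S100a4 fell from 26.6, 17.7 and 132 CPM to 2.05, 1.56 and 3.28 CPM (−4.67, and −3.26 without wild-type library 3). They were the 2 called of 13 measured S100 genes, whose median of −0.52 was −0.10 without wild-type library 1. Cd34, a sialomucin of vessels and progenitors, fell from 131, 186 and 119 CPM to a narrow 41.2, 43.7 and 43.5 CPM (−1.76, SE 0.26). Cd47, the signal that restrains phagocytosis, fell from 198, 126 and 136 CPM to 45.3, 49.2 and 67.8 CPM (−1.51, SE 0.27). Anxa1, an annexin with anti-inflammatory activity, fell from 145, 104 and 101 CPM to 41.4, 28.3 and 47.0 CPM (−1.58, SE 0.26). In hyperplasia these 3 genes stood at 70.0 to 115, 102 to 152 and 88.6 to 120 CPM. The adjusted p of S100a4, Cd34, Cd47 and Anxa1 lay between 0.0321 and 0.0404 (edgeR quasi-likelihood test, Benjamini-Hochberg).

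Markers of lipid-laden macrophages and multinucleated giant cells included 4 genes called lower, with log2 fold changes from −6.48 to −4.25. These cells clear lipid and debris and are known to collect in ageing mouse ovaries. Gpnmb, a lysosomal glycoprotein of such macrophages (chromosome 6, 49036546 to 49070929, plus strand), stood at 130, 135 and 223 CPM in wild type and at 1.59, 1.07 and 3.11 CPM in the tumours. The tumour mean was 84.0-fold lower by the fit (log2 fold change −6.39, SE 0.69). In hyperplasia Gpnmb stood at 639, 291 and 143 CPM, at or above wild type. Lgals3, the lectin galectin 3, fell from 83.0, 101 and 95.5 CPM to 2.25, 7.02 and 5.54 CPM (−4.25, SE 0.40), and was called in 12 of the 15 alternative analyses. Atp6v0d2, a proton pump subunit of osteoclasts and macrophages, fell from 23.5, 21.4 and 33.7 CPM to 0.132, 0.683 and 0.504 CPM (−5.94, SE 0.60). Mmp12, macrophage elastase, fell from 49.6, 17.5 and 56.4 CPM to 0.0662, 1.07 and 0.336 CPM (−6.48, SE 0.90, −5.88 without tumour library 1 and −7.72 without tumour library 2). The adjusted p was 0.0185 for Gpnmb, Lgals3 and Atp6v0d2 and 0.0293 for Mmp12 (edgeR quasi-likelihood test, Benjamini-Hochberg). Atp6v0d2 and Mmp12 could pass the count filter only through libraries outside the tumours. Their direction was therefore close to fixed in advance, and their calls are no separate evidence of a fall.

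The rest of that list was uneven. Of 15 measured members, 4 were called lower, 10 were below 0 and 5 above, and the median was −1.36 (−0.93 without wild-type library 1). Trem2, a lipid receptor of macrophages, stood at 26.6, 23.1 and 24.8 CPM in wild type and at 1.92, 9.95 and 2.18 CPM in the tumours without being called (−2.42, adjusted p = 0.0745, edgeR quasi-likelihood test, Benjamini-Hochberg). Spp1, osteopontin, stood at 18.8, 74.6 and 47.7 CPM and at 0.132, 3.71 and 0.840 CPM (−4.98). Apoe, an apolipoprotein that many cell types make, and Cd36, a fatty acid receptor, were highest in tumour library 2, Cd36 at 525 CPM against 68.5 to 121 CPM elsewhere. The giant cell fusion gene Dcstamp was at or near 0, with 2 counts in wild-type library 1 and 0 in the other 5 libraries.

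The leukocyte genes in this paragraph were chosen after their values were seen, from among the called genes, so their direction is no evidence about leukocyte genes as a whole. Ptprc, the pan-leukocyte phosphatase CD45, stood at 18.5, 23.8 and 21.6 CPM in wild type and at 6.42, 6.83 and 7.14 CPM in the tumours (−1.65, SE 0.27). Cd53, a leukocyte tetraspanin, fell from 18, 20.6 and 21.3 CPM to 3.44, 5.27 and 4.28 CPM (−2.21, SE 0.31). Itgb2, the beta chain of the leukocyte integrins, fell from 25.9, 27.5 and 31.6 CPM to 5.43, 6.44 and 6.30 CPM (−2.23, SE 0.33), and with Itgam and Itgax made up the 3 called of 27 measured integrins. Clec7a, the beta-glucan receptor dectin 1, fell from 27.4, 19.4 and 33.9 CPM to 1.92, 4.68 and 1.51 CPM (−3.32, SE 0.58, and −3.95 without tumour library 2). Msr1, a scavenger receptor (−2.38), Lair1 and Pirb, inhibitory receptors (−2.06 and −2.22), and Ly9 and Cd84, of the SLAM family (−2.59 and −2.53, the latter −3.12 without tumour library 2), also fell. Il2rg, the common gamma chain of cytokine receptors, fell by 1.56 on the log2 scale. Adjusted p-values for these genes lay between 0.0293 and 0.0471 (edgeR quasi-likelihood test, Benjamini-Hochberg). Hyperplasia levels were within or above wild type for Ptprc at 38.2, 23.8 and 22.7 CPM and for Clec7a at 68.5, 25.5 and 22.4 CPM.

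Mast cell proteases were at or near 0 in the tumours. Mast cells store proteases and histamine in granules and lie in the ovarian stroma and hilum. Cma1, a chymase, fell from 14.9, 9.19 and 1.78 CPM to 0, 0.0975 and 0.336 CPM, and Tpsb2, a tryptase, from 15.3, 13.1 and 1.61 CPM to 0.0662, 0.195 and 0.756 CPM. The log2 fold change of Cma1 was −5.89, −5.23 without wild-type library 1 or tumour library 1 and −7.48 without tumour library 3. That of Tpsb2 was −4.88, and −6.27 without tumour library 3. Mcpt4, another chymase, had 164 counts over wild type and 2 over the tumours (56.1-fold, 95% counting interval 15.3 to 467). Their adjusted p lay between 0.0404 and 0.0497 (edgeR quasi-likelihood test, Benjamini-Hochberg). All 8 measured members of the list were below 0, with a median of −5.22 and 6 of them not overlapping, beside 13.4% of all genes. Cma1, Tpsb2 and Mcpt4 could pass the count filter only through libraries outside the tumours. Their direction was therefore close to fixed in advance, and these counts are no separate evidence of a fall. Kit and Hdc, which other ovarian cells also express, overlapped between the groups (−0.35 and −0.84). Wild-type library 3 held much less than the other 2 wild-type ovaries, so wild type itself was uneven.

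Of the lymphatic endothelial genes Reln and Flt4 fell. Reln, a secreted matrix protein, fell from 20.5, 35.9 and 31.3 CPM to 4.37, 2.44 and 3.61 CPM (−3.06, SE 0.47), and Flt4, the receptor of VEGF-C, from 26.7, 42.0 and 44.0 CPM to 14.2, 11.1 and 13.5 CPM (−1.53, SE 0.31). Reln had an adjusted p of 0.0356 and Flt4 was called by a narrow margin in edgeR's quasi-likelihood test with Benjamini-Hochberg adjustment. Lyve1, the hyaluronan receptor of lymphatic vessels, stood at 25.1, 12.3 and 7.01 CPM and at 0.530, 0 and 1.34 CPM, and Mmrn1, multimerin 1, at 48.3, 47.1 and 48.4 CPM and at 7.88, 0.195 and 9.24 CPM, both uncalled (−4.53 and −3.04). Prox1, the master regulator of the lineage, stood at 7.36, 11.2 and 9.08 CPM and at 6.22, 19.1 and 7.48 CPM, so the groups overlapped. The list had 8 of 10 members below 0 and a median of −1.28. Its score was −1.80 in tumour library 2, against −0.37 and −0.41 in the other tumours and 0.79 to 0.92 in wild type. Pericyte and mural cell genes were all below 0 (12 of 12, median −0.90, none called), with Notch3 at −1.38 and Rgs5 at −1.13.

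**Figure D3:**
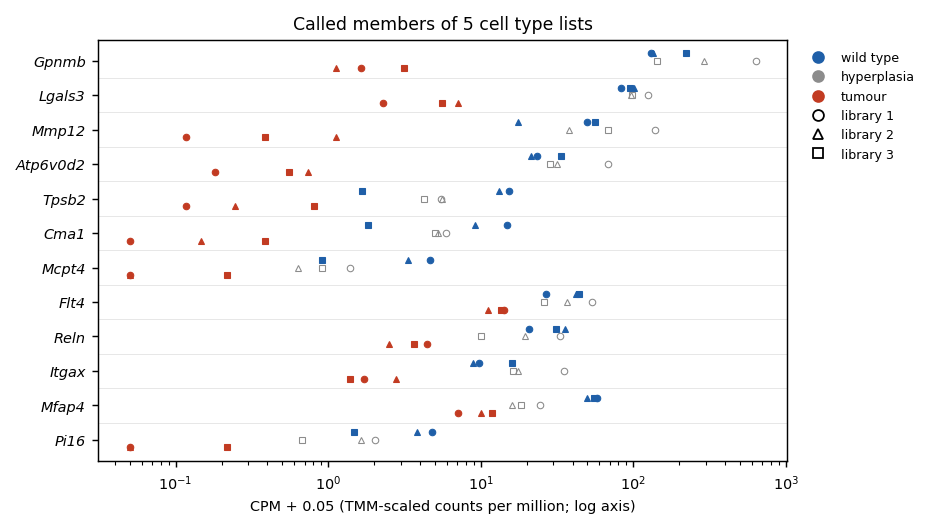
The 12 called members of the lists of lipid-laden macrophages, mast cells, lymphatic endothelium, dendritic cells and ovarian stroma, top to bottom, as CPM + 0.05 on a log axis with 1 point a library. Red tumour points lie to the left of all blue wild-type points, and grey hyperplasia points of Gpnmb, Lgals3 and Atp6v0d2 lie within or above the wild-type range.

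Other blood cell lists held few calls. Of 10 dendritic cell genes only Itgax, which macrophages also express, was called, falling from 9.65, 8.89 and 16 CPM to 1.66, 2.73 and 1.34 CPM (−2.59, adjusted p = 0.0403, edgeR quasi-likelihood test, Benjamini-Hochberg). The median was −0.70. Of the 10 genes 5 did not overlap between the groups, all lower in the tumours, beside 13.4% of all genes. Clec9a and Zbtb46 were among those that overlapped. T and natural killer cell genes had 10 of 11 members below 0, a median of −0.76 (−0.37 without wild-type library 1) and none called. Their levels were low throughout, with Cd3e at 0.883 to 2.24 CPM in wild type and 0.683 to 1.008 CPM in the tumours. Neutrophil genes were near 0 in most libraries, with 5 of 12 passing the count filter, a median of −1.14 and none called, and S100a8 and S100a9 were highest in tumour library 2 at 3.90 and 5.07 CPM.

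Surface epithelium and mesothelium split the tumours more than any other list. Tumour libraries 1 and 3 scored 2.32 and 1.25, above −0.04 to 0.55 in wild type, and tumour library 2 scored −4.40. Summed TPM over the list, a level per transcript length, was 313 to 554 in wild type, 2734 and 1251 in tumour libraries 1 and 3, and 8.51 in tumour library 2. Krt7, a keratin of simple epithelia, stood at 395, 0.195 and 125 CPM in tumour libraries 1, 2 and 3 and at 22.6 to 53.4 CPM in wild type. Epcam, an epithelial adhesion molecule, stood at 109, 1.27 and 73.8 CPM beside 22.7 to 46.5 CPM. Of the 17 members 15 had fitted values above 0, the median was 1.13, and none was called. Keratins, with 11 measured, and Hox genes, with 26, showed the same low value in tumour library 2, with scores of −2.33 and −1.47 against 1.39 and 0.70, and 0.48 and 0.37, in the other tumours.

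Stromal genes were mixed. Mfap4, a microfibril-associated protein, fell from 57.7, 49.5 and 55.2 CPM to 7.02, 10.04 and 11.8 CPM (−2.49, SE 0.27, adjusted p = 0.0185, edgeR quasi-likelihood test, Benjamini-Hochberg). Pi16, a marker of adventitial fibroblasts, had 184 counts over wild type and 2 over the tumours (62.9-fold, 95% counting interval 17.2 to 523), and was called. Over the 18 stromal members 7 were above 0 and 11 below, with a median of −0.45. Pdgfra, the receptor of stromal fibroblasts, stood at 95.4, 447 and 332 CPM in wild type and at 805, 351 and 915 CPM in the tumours, and Col1a2 was also lowest among the tumours in library 2, at 554 CPM against 2489 and 2073 CPM. Schwann cell genes had 4 of 8 members above 0 and a median of 0.25, with Sox10 at 0 counts in all 3 tumours and 1 to 6 counts in wild type. Multiciliated cell genes had 5 of 14 measured and a median of −0.38, none called. Below the filter, the oviduct regulator Foxj1 had 43, 87 and 8 counts in wild type and 2 in each tumour. Tekt1, of the same list, had 6, 18 and 5 counts in wild type and 2, 85 and 3 in the tumours. Of 10 Leydig cell genes Cyp11a1 and Prlr, both also luteal, were called lower, while Insl3 and Cyp17a1 overlapped between the groups.

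**Figure D4:**
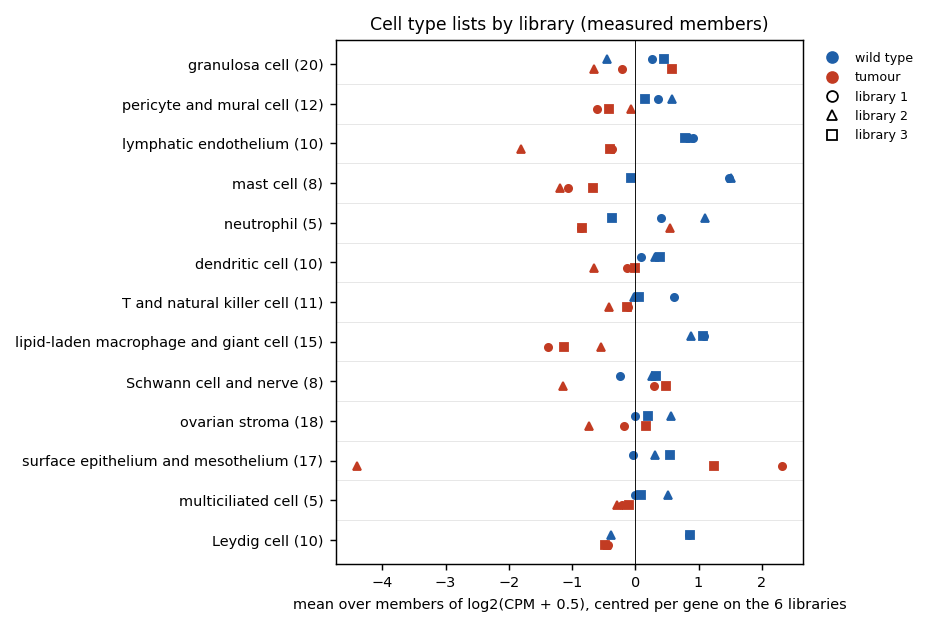
Score of each cell type list in the 3 wild-type (blue) and 3 tumour (red) libraries, the mean over measured members (number in brackets) of log2(CPM + 0.5) centred per gene on the 6 libraries. Lipid-laden macrophage, lymphatic and mast cell scores are lower in all 3 tumours than in all 3 wild-type ovaries. The same holds for pericyte, dendritic, T and natural killer, multiciliated and Leydig cell scores. Tumour library 2 (triangle) lies at −4.40 for surface epithelium while the other tumours lie at 2.32 and 1.25.

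Chemokines and their receptors were the immune function with the lowest median. Of 37 measured genes 31 were below 0 and 18 did not overlap, beside 13.4% of all genes, with a median of −1.30. Another 30 of the 67 listed genes did not pass the count filter. Members near 0 in the tumours could pass it only through other libraries, so their direction was close to fixed in advance. This holds for Ccl7, and how many others it holds for was not counted. Ccl7, a monocyte chemoattractant, was the 1 called and fell from 1.34, 2.65 and 7.01 CPM to 0.132, 0.0975 and 0.168 CPM (−4.70, and −3.82 without wild-type library 3). The scores were 0.59, 0.39 and 0.51 in wild type and −0.43, −0.74 and −0.32 in the tumours, so the median did not rest on wild-type library 1 (−1.14 without it). The lipid-laden macrophage scores, at 0.88 to 1.08 and −1.38 to −0.54, moved in the same direction, and their part in the chemokine values was not tested. Complement and coagulation genes had a median of −0.33 over 38 members. C3ar1, the receptor of the C3a peptide, fell from 10.3, 21.6 and 22.2 CPM to 3.84, 3.90 and 3.86 CPM (−2.22), and Cfb, factor B, from 5.42, 9.36 and 2.76 CPM to 0.463, 0.585 and 1.008 CPM (−3.08). F7, coagulation factor VII, was called with 75 counts over wild type and 1 over the tumours (51.3-fold, 95% counting interval 8.93 to 2053). The adjusted p of Ccl7, C3ar1, Cfb and F7 lay between 0.0321 and 0.0464 (edgeR quasi-likelihood test, Benjamini-Hochberg). Antigen presentation genes of the MHC class II list had 16 of 20 members below 0, a median of −0.39 (−0.08 without wild-type library 1) and none called.

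Lipid mediator and retinoid genes contained single large falls. Hpgds, a prostaglandin D synthase found in mast cells and macrophages, fell from 5.32, 9.07 and 9.20 CPM to 1.19, 1.37 and 0.588 CPM (−2.90). Ptgir, the prostacyclin receptor, fell from 4.33, 3.42 and 1.38 CPM to 0.0662, 0.0975 and 0.0840 CPM, 1 count in each tumour, a ratio of 38.5 (95% counting interval 13 to 189). With the luteal gene Ptgfr they were the 3 called of 21 prostaglandin genes, of which 10 were above 0. Crabp2, which carries retinoic acid to the nucleus, fell from 26.2, 10.01 and 7.24 CPM to 0.265, 0.0975 and 0.336 CPM (−5.89, and −5.14 without wild-type library 1), 1 of 20 retinoid genes called. The adjusted p of Hpgds, Ptgir and Crabp2 lay between 0.0287 and 0.0453 (edgeR quasi-likelihood test, Benjamini-Hochberg). Cyp2e1, a cytochrome P450 of liver and fat, had 417 counts over wild type and 1 over the tumours (285-fold, 95% counting interval 50.9 to 11291), and with Cyp11a1 was called among 28 measured P450 genes, of which 14 were above 0 and 14 below.

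Several receptors and ligands of transmitter, guidance and growth factor signalling were lower. Gabra3, a subunit of the GABA-A receptor, fell from 16.5, 31.7 and 26.2 CPM to 2.52, 3.12 and 2.02 CPM (−3.28, SE 0.43). Npy1r, a receptor of neuropeptide Y, fell from 3.18, 2.77 and 8.56 CPM to 0.596, 0.780 and 0.588 CPM (−2.88, and −2.18 without wild-type library 3). Over 54 measured transmitter and neuropeptide receptors, Oprl1 among them, the median was −0.33. Sema3g, a semaphorin of endothelium, fell from 116, 76.1 and 71.6 CPM to 9.80, 11.8 and 13.5 CPM (−2.91, SE 0.36), the 1 called of 68 axon guidance genes with a median of 0.20. Wnt10b, a ligand of canonical Wnt signalling, fell from 79.7, 70.0 and 45.5 CPM to 1.85, 0.195 and 1.26 CPM (−5.82, SE 0.74, and −6.43 without tumour library 1), the 1 called of 28 Wnt and Frizzled genes. Stc1, stanniocalcin 1, fell from 193, 46.4 and 56.4 CPM to 10.9, 13 and 5.80 CPM (−3.32, and −2.38 without wild-type library 1), the 1 called of 19 in the insulin-like growth factor list. For these genes the adjusted p lay between 0.0258 and 0.0451 (edgeR quasi-likelihood test, Benjamini-Hochberg).

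Lists of growth factor and hormone signalling held few calls. The FGF, PDGF, VEGF and HGF list had a median of 0.16 with Angptl2 higher and Flt4 lower, the EGF and neuregulin list 0.41 with none called, the cAMP and protein kinase A list 0.20 with none called and the nuclear receptor list 0.25 with none called. Esr2, oestrogen receptor beta, had tumour values of 231, 182 and 163 CPM above 41.1, 50.4 and 81.5 CPM in wild type without being called. Oestrogen-responsive genes had a median of −0.34 with 4 of 12 above 0. Apoptosis regulators had a median of −0.13, and Bmf, a pro-apoptotic BH3-only protein, fell from 44.8, 68.3 and 53.8 CPM to 17.1, 10.4 and 15.5 CPM (−1.95, SE 0.32, adjusted p = 0.0361, edgeR quasi-likelihood test, Benjamini-Hochberg). Bcl2a1b, an anti-apoptotic gene of leukocytes with near-identical copies and so uncertain, also fell (−2.39). Glycolysis (−0.26), fatty acid oxidation (−0.06), fatty acid synthesis (−0.39), antioxidant (−0.22), circadian clock (0.08) and imprinted gene lists (0.20) had the median given after each and no called member.

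Several housekeeping families were highest in wild-type library 1 and tumour library 2. Cytosolic ribosomal protein genes scored 0.57 in wild-type library 1 and 1.02 in tumour library 2, and −0.61 to −0.17 in the other 4 libraries. Their median of 0.36 over 80 genes was 0.84 without wild-type library 1 and −0.19 without tumour library 2, and none was called. Nuclear-encoded respiratory chain genes scored 0.88 and 0.56 in those 2 libraries and −0.49 to −0.29 elsewhere, and their median of −0.13 turned to 0.38 and −0.60. Proteasome subunits (median −0.08, then 0.18 and −0.39) and histones (−0.62, then 0.21 and −1.29) did the same. These transcripts are short, and both libraries were the ones in which expression fell with gene length, whose part in these scores was not tested. Heat shock genes (median 0.46, −0.16 without tumour library 2) and chaperones of the unfolded protein response (0.18, and −0.06) were highest in tumour library 2, at 0.70 and 0.62.

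**Figure D5:**
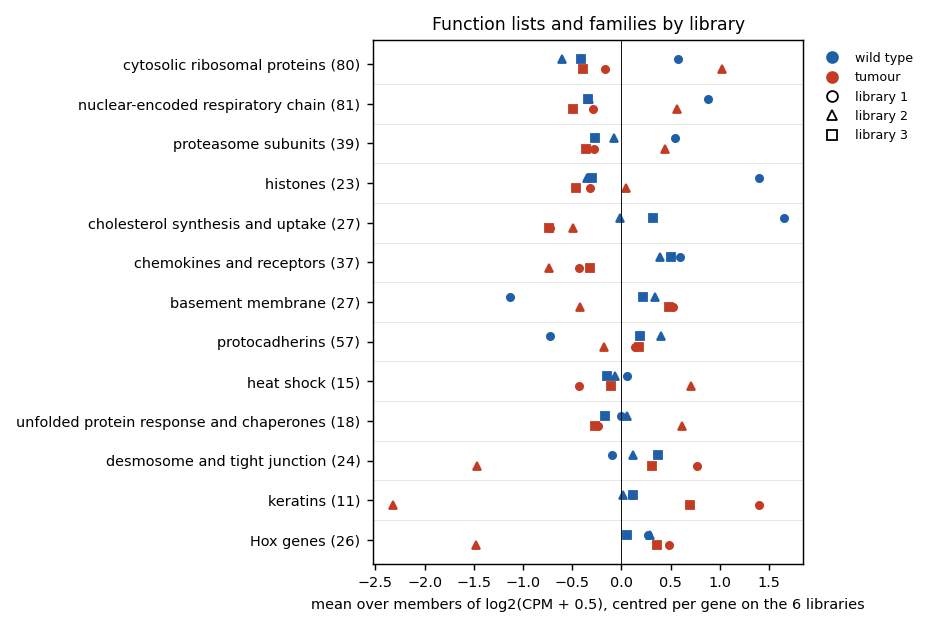
Scores of 13 function lists and families in the 6 libraries, drawn as in the plot of cell type scores. Wild-type library 1 (blue circle) and tumour library 2 (red triangle) lie together on the right for ribosomal, respiratory chain and proteasome genes, at 0.44 to 1.02, while chemokines and cholesterol synthesis separate the groups and keratins and Hox genes set tumour library 2 apart.

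Transcription factor families gave 1 call in all. Zinc finger genes named Zfp had 226 of 365 members above 0, a median of 0.14 and 0.03 without wild-type library 1, with Zfp41 called. Forkhead genes had a median of 0.50 over 23 members, Sox genes 0.39 over 12 and Hox genes −0.59 over 26, with no call. Sox9, which directs the testis pathway that Foxl2 opposes, stood at 4.67, 7.60 and 7.42 CPM in wild type and at 18.7, 39.9 and 9.83 CPM in the tumours without being called (1.80, adjusted p = 0.128, edgeR quasi-likelihood test, Benjamini-Hochberg). Among 257 solute carriers 120 were above 0 and 137 below, and 4 were called, all lower: Slc25a30, Slc30a3, Slc25a48 and Slc22a4. Slc30a3, a zinc transporter of vesicles, had 199 counts over wild type and 1 over the tumours (136-fold, 95% counting interval 24.1 to 5402). Gja4, the connexin that joins oocyte and granulosa cell and also lines arteries, fell from 34.9, 15.8 and 14.5 CPM to 5.16, 5.95 and 4.54 CPM (−2.06, SE 0.41, adjusted p = 0.0471, edgeR quasi-likelihood test, Benjamini-Hochberg).

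The hyperplasia libraries can also be placed against the lowered genes. For 104 of the 140 lowered genes their mean lay between wild type and tumour, and for 36 it lay above the wild-type mean, as it did for Gpnmb, Ptprc and Clec7a. Hyperplasia library 3 was the lowest of its group for 111 of the 140. All 3 hyperplasia libraries lay below the whole wild-type range for 21 of the 140, against 35 of 57 above it for the raised genes. The difference between these shares was not tested, and the shares over all genes were not counted. These genes were called on the same wild-type and tumour libraries, so hyperplasia values between those groups were likely in advance.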

How the data were processed

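RNA of 9 mouse ovary samples was extracted with Trizol and sequenced from stranded TruSeq mRNA libraries, per the labels' protocols. The submitters' processing notes list the GRCm38 build and RSEM 1.3.1, STAR 2.7.1a, FastQC and Picard 2.8.1. The strand setting of counting was not given in the sources used here. The authors deposited, per the file headers, an expected count, a TPM and an FPKM value for each of 55536 genes. FPKM was not used. Deposited TPM values gave levels per length and 1 alternative analysis. Of the deposited expected counts above 0, 25.6% were not whole numbers (tolerance 0.001), and all were rounded.

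Genes were kept by the edgeR filter (minimum count 10, minimum total 15), leaving 16213, with library sizes adjusted by trimmed-mean (TMM) factors. One quasi-likelihood fit (edgeR 4.0.16, R 4.3.3) of all 9 libraries in 3 groups gave 6 residual degrees of freedom, and the contrast tumour minus wild type was adjusted by Benjamini-Hochberg with a threshold of 0.05. The fit was checked on simulated counts. Counting intervals are exact 95% intervals and cover counting error only. As the floor 3 counts were taken, 0.144 to 0.257 CPM in a single library before trimmed-mean scaling.

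Lists of genes by cell type (13), function (33) and family (37) were written by hand. The members and lists were chosen with earlier results of these data known. The pattern for ribosomal proteins was narrowed after the files were seen, because it also took in Rps6ka kinases. Named genes were Foxl2, the 15 raised genes with the highest tumour CPM and the 10 with the largest fold, and the 20 lowered genes with the highest wild-type CPM outside the oocyte, adipocyte and luteal lists and with more than 3 tumour counts. Apart from Foxl2, all were called, protein coding, not overlapping between groups and at 1 CPM or more in the higher group. Up to 3 members of each list with the smallest p, any called member and cell type markers were also named. Other genes were chosen after their values were seen. Some genes and 1 list that these rules name are not reported here. The 15 alternatives included limma 3.58.1 and DESeq2 1.42.0.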

Additional observations from a re-analysis of the deposited data

How the results depend on the processing

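The number of called genes depended on the tool and on single libraries. Beside 259 (57 higher, 202 lower), the DESeq2 Wald test called 1747 (604 and 1143), limma-voom with quality weights 1318 (485 and 833), the fit with no low-count filter 721 (164 and 557), length-trend offsets 497 (135 and 362) and limma on log2(TPM + 1) 428 (376 lower). The share of calls that were higher was 22%, and 34.6% by the DESeq2 Wald test, 36.8% with quality weights and 12.1% on log2(TPM + 1), a scale on which the median of all genes was −0.12 beside 0.01. The term for the shared title stem left 0 calls in total, higher and lower. With single libraries left out the count ran from 0 to 69, 0 to 18 higher and 0 to 51 lower. The fit of only the 6 compared libraries called 346 genes (61 higher, 285 lower). The cause was not tested. All 259 called genes kept their sign in every alternative that tested them.

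Of 4019 values of 269 named genes, 2 changed sign, Aqp2 at −0.0444 and S100b at −0.34 with quality weights, and neither was called. Of 1245 list medians 11 were counted as changing sign, a count limited to lists whose scores did not overlap between the groups. Medians of lists with overlapping scores also changed sign, as those of ribosomal proteins and histones did. The prostaglandin median was 0.00346 with limma-voom and 0.0443 without wild-type library 2, and the solute carrier median 0.000325 without wild-type library 2. With single libraries left out these 2 medians ran from −0.590 to 0.0443 and from −0.0773 to 0.000325. The cytochrome P450 median was −0.199 on log2(TPM + 1), −0.152 with quality weights, −0.109 with limma-voom, −0.154 with the title-stem term, −0.170, −0.328 and −0.120 without tumour libraries 1, 2 and 3, and −0.103 without wild-type library 2, within a range of −0.328 to 0.0747 with single libraries left out. The cause was not tested.

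No paired analysis was possible because the labels give no replicate numbers that the groups share. With 3 libraries a group and a median standard error of 0.38 on the log2 scale, small differences were not detectable.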

Other observations

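AY036118, a non-coding RNA gene (GRCm38 chromosome 17, 39847113 to 39848035, minus strand), was chosen after its values were seen. It had 0 counts in all 3 wild-type libraries and 60.8, 44.6 and 52.9 CPM in tumour libraries 1, 2 and 3, and hyperplasia libraries had 9.32, 4.27 and 0 CPM. It lies within Gm42418, a non-coding RNA gene on the plus strand (39846958 to 39848788), whose mean was 433 CPM in wild type and 364 CPM in the tumours (log2 fold change −0.25). With no strand setting given for the counting, reads of the overlapping genes may not be told apart, so the value of AY036118 is uncertain.

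Some raised genes of moderate level had closely grouped values and were likewise chosen after these were seen. Clca3a1, of a family of secreted regulators of chloride channels, stood at 9.85, 10.01 and 13 CPM in wild type and at 39.7, 42.8 and 40.0 CPM in the tumours (1.90, SE 0.21, adjusted p = 0.0201, edgeR quasi-likelihood test, Benjamini-Hochberg). Kif1a, a kinesin that carries synaptic vesicle precursors, stood at 7.16, 10.9 and 16.6 CPM and at 55.3, 58.4 and 70.6 CPM (2.41). Neat1, the long non-coding RNA of paraspeckles, fell from 118, 164 and 102 CPM to 15.9, 11.1 and 15.1 CPM (−3.19, adjusted p = 0.0287, edgeR quasi-likelihood test, Benjamini-Hochberg). Thbs2, the relative of Thbs1, was lower where Thbs1 was higher, at 21.6, 47.6 and 43.2 CPM in wild type and at 4.90, 7.12 and 6.64 CPM in the tumours (−2.59).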
